A study of Macaca fascicularis with 8 samples.

Results

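The regions described here are stretches of the cynomolgus monkey genome that were called accessible in kidney and in the liver of the same male animal and in none of 5 other organs. They were chosen by merging the peak lists of colon, heart, kidney, liver 2, lung, spleen and uterus wherever peaks overlapped by at least 1 bp, and by keeping each merged region that held a kidney peak and a liver 2 peak and no peak of another list. This gave 11140 member regions of 245443, or 4.54%. The peak calls in kidney and liver 2 therefore selected the members, and the levels in these 2 libraries are given as a description.

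Single-cell ATAC-seq was available for 8 libraries from normal organs of adult Macaca fascicularis. Kidney, spleen and liver 2 came from the male, and colon, heart, lung, uterus and liver 1 from the female. Each sex was 1 animal and each organ of the rule had 1 library, so organ, library and animal cannot be told apart, and no p-value is given. Liver 1 did not take part in the choice of members and served as the only check from a second animal. Barcodes with at least 1000 counts in peaks, called cells below, numbered 9724 in kidney, 11935 in liver 2 and 728 in liver 1, with 40995276, 92100566 and 1978404 counts in peaks. Liver 1 had 165942 peaks, more than any other list, and the fewest counts, so its values rest on the least depth. Kidney and liver 2 shared 156 barcode sequences, 1.60% of the kidney barcodes, and other pairs of libraries shared between 17 and 379.

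In this assay the transposase Tn5 cuts DNA that is not wrapped in tightly packed chromatin, so a peak marks a promoter, an enhancer or another open site. Enhancers are the elements whose accessibility differs most between cell types, whereas many promoters are open in all of them. The parenchymal cells of liver and the proximal tubule cells of kidney are both polarised epithelia known for uptake and export of metabolites and for making glucose. Both use transcription factors of the hepatocyte nuclear factor families. The genome build of the peak positions was not given in the sources used here, so positions are printed as deposited, counted from 1, and no region is assigned to a gene, a promoter or a sequence motif.

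Kidney and liver 2 formed the second most frequent of the 21 organ pairs. Colon and spleen shared 13103 regions that no other list held, kidney and liver 2 shared 11140, and the next pair, colon and kidney, shared 2569. The kidney and liver 2 number was 4.34 times the next one, and the median over the 21 pairs was 1510. The 2 other pairs within the male animal were far smaller, with 1541 regions for liver 2 and spleen and 779 for kidney and spleen. Members made up 10.96% of the 101657 regions with a kidney peak and 10.4% of the 106703 regions with a liver 2 peak. Of the 57734 regions with peaks in both, 19.3% were members and 20204 had a peak in all 7 lists.

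When the liver 1 list took the place of liver 2, the pair now joined organs of different animals. Kidney and liver 1 then shared 7469 regions with no other list, the first of the 21 pairs, ahead of colon and spleen with 5213 and liver 1 and spleen with 4963. Of these 7469 regions, 78.3% also had a liver 2 peak. In the merge with liver 2, 57734 of the 101657 regions with a kidney peak had one. The share over all regions with a liver 1 peak is not given, so 78.3% lacks a full background. The liver 1 list is longer, with 158792 regions against 106703, and it holds a peak in 8146 of the 13103 regions of colon and spleen, so the ranks with either list are not on an equal footing. The number of members depended on how many peaks each list kept. It was 3606 when a peak needed a count in 1% of the cells of its library and 4228 when each list was cut to its 50000 peaks with most counts. Both settings shorten lists of the other organs as well as those of kidney and liver. The uterus list, with 37159 peaks, is not shortened by the cut to 50000.

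**Figure D1:**
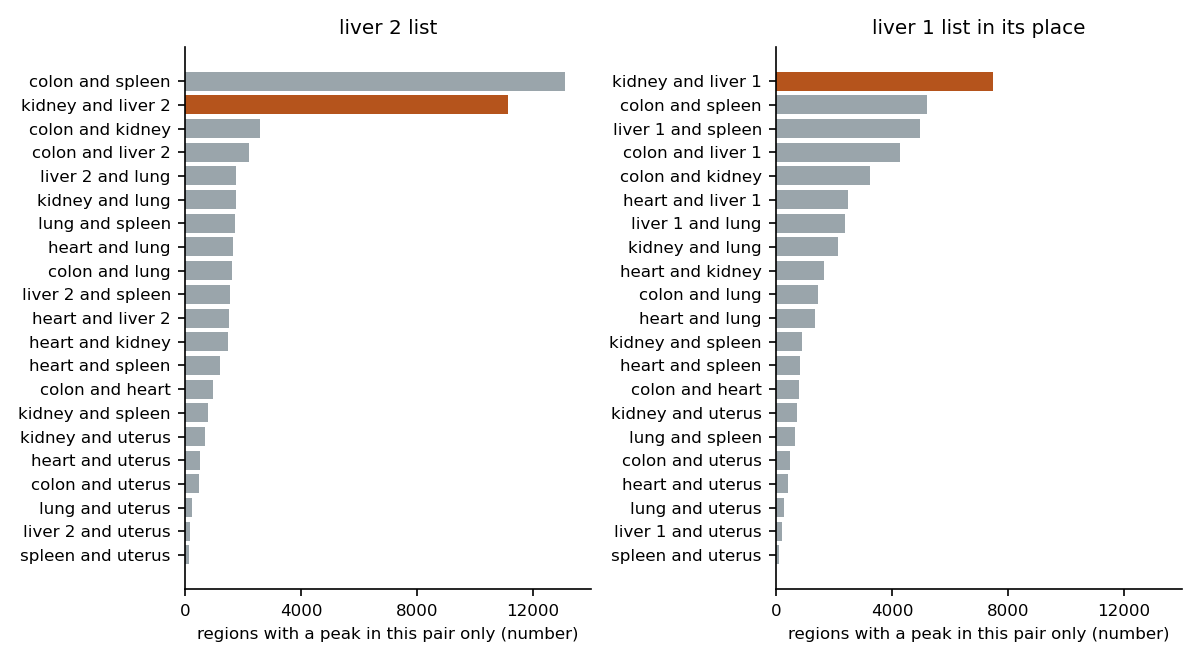
Number of regions with a peak in 1 pair of organs only (x axis) for each of the 21 pairs, with the liver 2 list on the left and the liver 1 list in its place on the right. The pair of kidney and liver, in colour, stands second with 11140 regions on the left and first with 7469 on the right.

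Most members were a single peak of each organ at nearly the same place. In 10948 members, 98.3%, there was 1 kidney peak and 1 liver 2 peak. The median overlap of these peaks was 382 bp and the median distance between their centres 34 bp, and the centres lay within 100 bp of each other in 73.5%. The wider peak covered 100% of the narrower one at the lower quartile as at the median. Members were narrow, with a median width of 576 bp (quartiles 446 and 898), against 2018 bp for regions shared by all 7 organs. Kidney-only and liver 2-only regions were narrower still, with medians of 401 and 425 bp. The merging of 2 peaks into 1 region makes a member at least as wide as its widest peak, so the widths of regions called in different numbers of lists are not on an equal footing.

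At the edge of the rule, a few bp decided whether a region was a member. In 109 members the peaks overlapped by fewer than 10 bp. The members chr1:126161045-126161295, chr1:183442073-183442577 and chr10:94452534-94452970 rested on an overlap of 1 bp and had 49, 134 and 128 kidney counts and 0 liver 2 counts each. Across all members, 58 had no kidney count and 37 no liver 2 count in the cells kept, although a peak was listed. The members with the lowest level were of this kind: chr1:47519707-47520069 had 0 kidney counts and 153 liver 2 counts, and chr1:107327085-107327560 had 0 and 197. Just outside the rule, 79 kidney-only regions lay within 100 bp of a liver 2-only region. The closest were chr16:37846052-37846053, with 0 kidney counts at a gap of 1 bp, chr4:168101511-168101717, with 52 at 3 bp, and chr11:95364933-95365642, with 286 at 5 bp.

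The word "only" also has an edge toward the other organs. A peak of another organ lay within 500 bp of 515 members, 4.62%, and the median gap was 4785 bp. The 3 members nearest to such a peak were chr5:3439112-3439459, at 2 bp, and chr13:43388899-43389295 and chr9:112144623-112146103, both at 12 bp. The matrix of each library holds counts for its own peaks alone, so the level of a member in colon, heart, lung, spleen or uterus was not measured. The lack of a peak there does not say that the DNA was closed.

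Levels are given as CPM, the counts in a region for every 1000000 counts that its library has in peaks. In a summed library, fewer open cells and less access per cell cannot be told apart. The median member had 3.0 CPM in kidney (quartiles 1.68 and 6.63) and 2.83 in liver 2 (1.48 and 6.53), which is 123 counts in kidney and 261 in liver 2. All members together took 6.28% of the kidney counts and 6.88% of the liver 2 counts. They took 1.497% of the liver 1 counts, where kidney-only regions took 0.309% and liver 2-only regions 2.45%.

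Per cell, a single member was rarely seen. The median member had a count in 0.658% of kidney cells and 1.13% of liver 2 cells, and 27 members had one in at least 10% of kidney cells against 289 members in liver 2. The median kidney cell had a count in 109 members and the median liver 2 cell in 225. The median depth of the cells differed in the same direction, at 3694 counts in kidney and 6818 in liver 2.

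Over members, the kidney and liver 2 levels were weakly related. Across the 11140 members, Spearman's rho of the kidney and liver 2 levels was 0.31, and per kb of width it was -0.09. The points share the width of the region, and rho of width with the smaller of both levels was 0.58. The second value divides both levels by the merged width, while each library was counted in its own peaks only. It is therefore not free of width. Among the 2769 members with at least 200 counts in each library, the log2 ratio of liver 2 over kidney had a median of -0.49, quartiles of -1.30 and 0.34, and extremes of -4.57 and 5.90. The rule asks for a peak in each list and thereby sets a lower edge to both levels, which bears on these values.

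**Figure D2:**
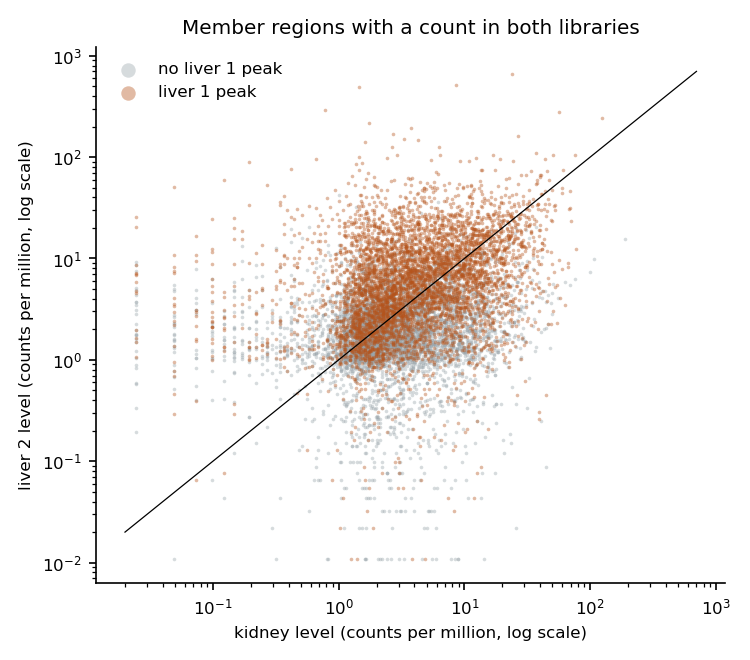
Level of each of the 11045 members with a count in both libraries, in kidney (x axis) and liver 2 (y axis), as CPM on log scales. The line marks equal levels, colour marks members with a liver 1 peak, and these lie mostly at the higher liver 2 levels.

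A few members stood high in both organs. The highest smaller level belonged to chr12:128806290-128820109, a region of 13820 bp. It had 124 CPM in kidney (exact Poisson interval 119 to 129), 245 in liver 2 (240.1 to 249) and 36.4 in liver 1 (25.5 to 50.4). A count in it was seen in 21% of kidney cells, 47.4% of liver 2 cells and 4.67% of liver 1 cells. Next came chr17:91738386-91749266, with 75.5 CPM in kidney, 104 in liver 2 and 12.6 in liver 1. The most even of the 10 highest was chr17:766197-769274, with 49.3 in kidney and 47.7 in liver 2, intervals that overlap, and 24.8 in liver 1. Per kb of merged width, the highest of the 10 in kidney was chr3:91987126-91989328, with 31.3 CPM per kb in kidney, 21.2 in liver 2 and 4.36 in liver 1. All 10 had a liver 1 peak, as did 89.8% of all members with at least 8 CPM in liver 2. Over whole libraries, the liver 1 level was below both others in all 10. The libraries differ in the share of cells with a high member level, as given below, which bears on this order. Intervals cover counting error only and were computed on halved counts, because most counts come as the 2 ends of 1 fragment.

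Other members had very different levels in the 2 organs. On the liver side, chr5:60910576-60935780, a region of 25205 bp, had 510 CPM in liver 2, 301 in liver 1 and 8.54 in kidney, a log2 ratio of 5.90. Liver 2 and kidney had 1 peak each there and liver 1 had 4. Each level covers the peaks of its own library, so the values are not of the same stretch of DNA. The share of cells with a count was 61.7% in liver 2, 17.3% in liver 1 and 1.80% in kidney. The region chr3:70826882-70844384 had the highest liver 2 level of all members, 653 CPM, with 23.7 in kidney and 38.4 in liver 1. On the kidney side, chr5:6175952-6178126 had 54.3 CPM in kidney (51.1 to 57.5), 2.29 in liver 2 (1.87 to 2.77) and 7.58 in liver 1 (3.17 to 15.3). The region chr3:34737038-34738866 had 46.0 in kidney and 2.28 in liver 2, and no liver 1 peak. The first 2 regions are wide, and per kb of merged width their kidney levels were 0.339 and 1.35 CPM. The median over all members was 5.19 CPM per kb. Kidney was counted in its own peaks only, and in members of 1 peak each the widest kidney peak was 5569 bp. Most of the first region was thus not counted in kidney, and 0.339 is not the density of its kidney peak.

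In the second animal, 5564 members had a liver 1 peak, 49.9% (exact binomial interval 49.0 to 50.9). The background was 42.6% over all regions of the 7 lists, 52.4% over those with a kidney peak and 66.9% over those with a liver 2 peak. The members' share was thus below that of liver 2 regions as a whole, a group in which regions of all 7 organs reach 98.9%. Among regions of fewer organs, it was 33.4% for liver 2-only regions (32.9 to 33.9), 6.04% for kidney-only regions (5.77 to 6.31) and 66.9% for the 3081 regions of colon, kidney and liver 2 (65.2 to 68.6). With peaks in 1% of cells the members' share was 76.2%, and with the 50000 peaks of most counts 82.0%. No background share is given at these settings, so these values cannot be set beside those above. Both settings keep stronger peaks, and in liver 2-only regions the share also rose with level. It went from 15.6% below 1 CPM in liver 2 to 82.6% at 8 and over.

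The share with a liver 1 peak was larger at higher liver 2 levels, and larger in members than in liver 2-only regions at each level. Below 1 CPM it was 21.97% in members (19.7 to 24.4) and 15.6% in liver 2-only regions (14.7 to 16.5). Between 2 and 4 it was 42.1% (40.3 to 44.0) and 31.6% (30.6 to 32.7). At 8 and over it was 89.8% (88.5 to 91.1) and 82.6% (81.3 to 83.9). The intervals did not overlap in any of the 5 level groups. They cover counting error over regions of 1 library, which are not replicates, so this is no test between the classes. The width of a member includes its kidney peak, which gives a liver 1 peak more DNA to overlap. In members the share went from 19.7% below 300 bp to 82.5% at 1500 bp and over. Among regions of 400 to 700 bp, the shares at 1 to 2 CPM were 26.1% (23.8 to 28.4) and 25.7% (23.8 to 27.6), which overlap. At 2 to 4 CPM in the same widths they were 41.0% (38.9 to 43.1) and 31.4% (30.2 to 32.5), and at 4 to 8 they were 64.4% (61.4 to 67.2) and 53.0% (51.2 to 54.8). Within these widths the intervals were apart at 2 to 4 and 4 to 8 CPM and overlapped at 1 to 2, and other levels were not read by width.

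**Figure D3:**
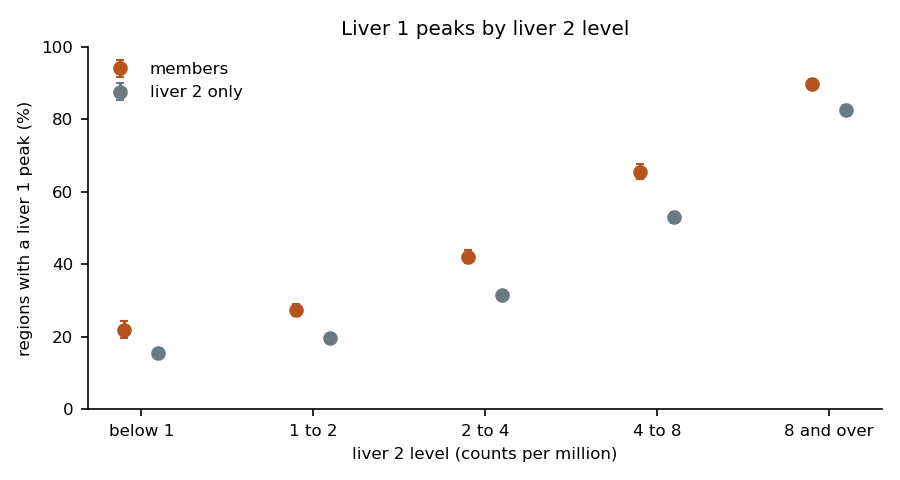
Share of regions with a liver 1 peak (y axis, %) by liver 2 level in CPM (x axis), for members and for regions of liver 2 only. Bars are exact binomial intervals, often smaller than the points. Members run from 21.97% to 89.8% and liver 2-only regions from 15.6% to 82.6%.

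The share with a liver 1 peak differed less between kidney levels, which were not read at a fixed liver 2 level or width. In members it went from 39.3% (36.1 to 42.5) below 1 kidney CPM to 64.8% (62.8 to 66.8) at 8 and over, while in kidney-only regions it went from 5.52% to 8.66%. Among the 5564 members with a liver 1 peak, rho of the levels per kb of merged width was 0.32 for liver 1 with liver 2. It was 0.02 for liver 1 with kidney. Each library was counted in its own peaks only, so these values are not free of width either. Of these members 1072 had no liver 1 count in the cells kept, and the median was 4 counts, so a single member can seldom be compared at this depth.

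Within each library, the members' signal was unevenly spread over the cells. The share of a cell's counts that fell into members had 2 peaks in kidney, in liver 2 and, on fewer cells, in liver 1. The median was 6.55% in kidney (5th and 95th percentiles 2.71 and 8.41), 7.21% in liver 2 (0.958 and 8.56) and 0.448% in liver 1 (0.102 and 7.03). It was at least 6% in 59.0% of kidney cells, 74.7% of liver 2 cells and 14.6% of liver 1 cells, and under 3% in 9.19%, 18.9% and 77.1%. In cells whose barcode sequence occurred in both libraries, the median was 6.58% in kidney and 7.37% in liver 2, against 6.55% and 7.21% in the other cells.

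**Figure D4:**
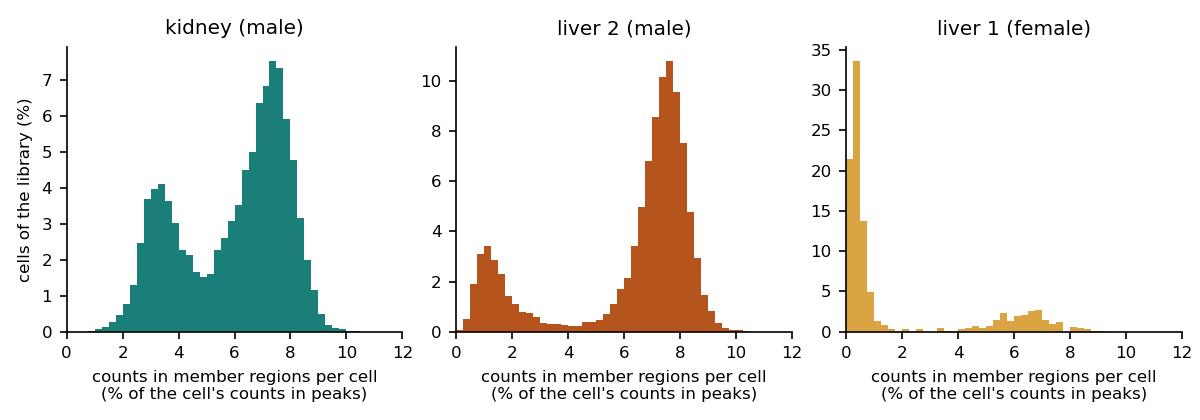
Distribution of cells by the share of their counts in peaks that fell into member regions (x axis, %), in kidney, liver 2 and liver 1 (y axis, % of the cells of the library). Each library shows a low and a high group of cells, and in liver 1 77.1% of cells are under 3%.

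Cells were then clustered without the member regions, after removal of likely doublets, which left 8779 cells in kidney, 10511 in liver 2 and 723 in liver 1. In kidney, clusters 1 and 5, with 4544 and 579 cells, had 7.44% and 7.22% of their counts in members, and the 5 other clusters between 3.54% and 4.395%. In liver 2, clusters 1 to 4 and 6 had between 7.01% and 7.77%, and the 6 others between 1.15% and 3.92%. In liver 1, cluster 2, with 172 cells, had 6.27% (6.15 to 6.38), and the 4 others between 0.266% and 0.672%. The clusters stay unnamed, since no set of marker genes could be placed on these positions. The highest cluster exceeded the lowest 2.10 times in kidney, 6.75 times in liver 2 and 23.5 times in liver 1. Liver 2-only regions came close, with 6.55 times in liver 2 and 19.8 times in liver 1, and kidney-only regions reached 1.70 times in kidney. Regions of colon, kidney and liver 2 had 2.12 times in kidney, 6.49 times in liver 2 and 11.98 times in liver 1. Peaks of these other classes took part in the clustering of each library and members did not, so the ratios are not on an equal footing. Without the removal of doublets, the ratio of members in liver 2 was 3.22.

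The liver 1 clusters are the values here that the rule did not use. Cluster 2 of liver 1 had 0.232% of its counts in kidney-only regions, within the range of 0.131% to 0.352% in the 4 others. Liver 2-only regions took 8.64% of its counts and between 0.435% and 1.83% in the 4 others. Regions of colon, kidney and liver 2 took 2.71% of its counts and between 0.226% and 0.272% in the 4 others. Liver 1 holds counts for its own peaks alone, so each class is read here through the share of its regions with a liver 1 peak, 6.04% for kidney-only regions, 33.4% for liver 2-only regions, 49.9% for members and 66.9% for regions of colon, kidney and liver 2.

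A joint clustering of the 20013 cells of kidney and both livers used 19960 regions with a peak in all 8 lists. A member on its own lacks a peak of the other organs and was thus left out. A member that a liver 1 peak joined to a neighbouring region could still enter, and this was not checked. Joint cluster 1 held 6956 liver 2 cells and 146 liver 1 cells, with 7.55% and 6.52% of their counts in members. Joint cluster 4 held 1142 liver 2 cells at 6.94% and 18 liver 1 cells at 5.26% (4.92 to 5.62). Joint cluster 2 held 5606 kidney cells at 7.31% and 1 liver 1 cell, and joint cluster 3 held 2994 kidney cells at 3.70%, 35 liver 2 cells at 1.92% and 1 liver 1 cell. The cells with a high member level in kidney and in liver thus did not fall into 1 cluster, although the clustering used regions open in all organs. No batch correction was applied, and library and organ cannot be told apart in the separation of kidney from liver.

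Joint cluster 5 joined cells of all 3 libraries, with 125 kidney cells, 931 liver 2 cells and 86 liver 1 cells. It was set apart by the window around EGFL7, a gene of blood vessel lining cells, whose position was taken from the study. The window had 1221 CPM in kidney (1051 to 1412), 1287 in liver 2 and 892 in liver 1 (710 to 1108). In the other joint clusters of at least 50 cells it had between 46.1 and 439. The window held 11 of the merged regions and none was a member. Members took 2.35% of the counts of this cluster in kidney (2.27 to 2.43), 1.69% in liver 2 and 0.671% in liver 1, each well below the highest joint cluster of the same library.

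**Figure D5:**
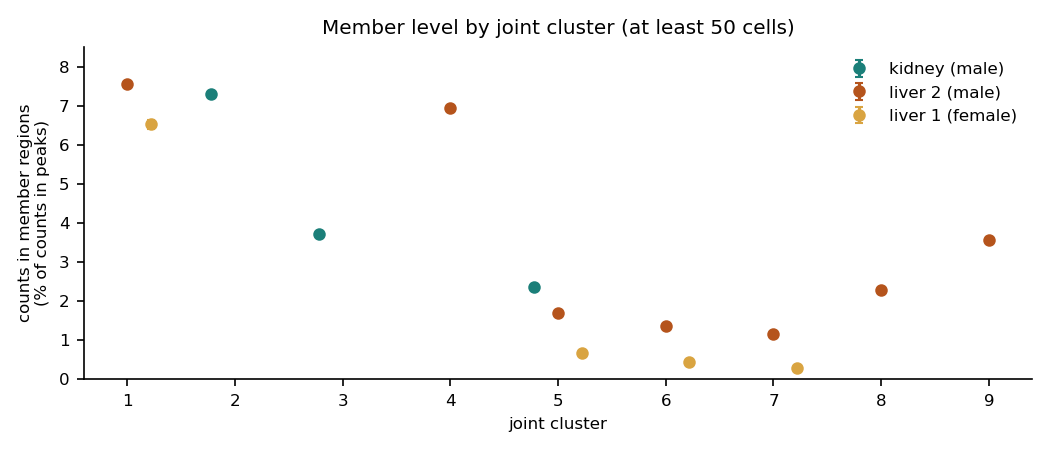
Share of counts in member regions (y axis, %) for each joint cluster (x axis) with at least 50 cells of the library, in kidney, liver 2 and liver 1. Bars are exact Poisson intervals, mostly smaller than the points. Joint clusters 1, 2 and 4 lie between 6.52% and 7.55%, and the others at or below 3.70%.

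In kidney, the difference between joint clusters 2 and 3 ran through most members. Of the 5606 members with at least 100 counts in both clusters together, 4860, or 86.7%, were higher in joint cluster 2 and 746 in joint cluster 3, with a median log2 ratio of 1.52 (quartiles 0.73 and 2.04). The share was 55.9% over all 58384 regions with a kidney peak and as many counts, 81.8% over kidney-only regions, 84.5% over regions of colon, kidney and liver 2 and 25.1% over regions of all 7 organs. The median log2 ratio of kidney-only regions was 1.48, close to that of members. More than a 2-fold excess was seen in 3829 members toward joint cluster 2 and in 297 toward joint cluster 3. As shares of all counts, members were 1.97 times higher in joint cluster 2, regions of colon, kidney and liver 2 were 1.99 times higher, kidney-only regions 1.53 times higher and regions of all 7 organs 0.821 times as high. The region chr12:12984600-12990015 was one of those that ran the other way, with 52.4 CPM in joint cluster 2 and 89.3 in joint cluster 3.

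Some members were read by the liver cells in which they stood highest. Each of the 8492 members with at least 100 liver 2 counts was placed with the joint cluster in which its liver 2 level was highest, among the 6 joint clusters with at least 200 liver 2 cells, and was then read in liver 1 and kidney, which this placement did not use. Joint cluster 1 took 5065 members, joint cluster 4 took 1815, joint cluster 8 took 846, joint cluster 5 took 379, joint cluster 7 took 203 and joint cluster 6 took 184. These numbers are not a measure of how many members belong to a cluster, because in a cluster of few cells counting error alone can make a level the highest. The 846 members of joint cluster 8 had 5086 counts there and the 203 of joint cluster 7 had 864. The 379 members of joint cluster 5 had a mean of 5.05 CPM per region in that cluster of liver 1 (4.33 to 5.86) and 1.81 in joint cluster 1 (1.496 to 2.18). The 5065 members of joint cluster 1 ran the opposite way in liver 1, with 0.406 in joint cluster 5 and 8.61 in joint cluster 1. The liver 2 order was fixed by the placement, so only the values in liver 1 and kidney are independent of it. Members placed with joint clusters 4 and 8 could not be read this way, since these held 18 and 3 liver 1 cells.

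In kidney, where joint cluster 1 held no cells, both groups of members had their highest level in joint cluster 2. The 379 members of joint cluster 5 had 3.30 CPM per region in joint cluster 5 of kidney (2.85 to 3.81), 3.24 in joint cluster 3 and 4.32 in joint cluster 2. The 5065 members of joint cluster 1 had 2.19 in joint cluster 5 of kidney (2.09 to 2.30), 3.46 in joint cluster 3 and 7.75 in joint cluster 2. For the 184 members of joint cluster 6, the liver 1 level was 3.31 in that cluster (2.78 to 3.91) and 2.96 in joint cluster 1 (2.38 to 3.64), which do not differ beyond counting error. For the 203 members of joint cluster 7, it was 0.718 in that cluster (0.559 to 0.907) and 1.29 in joint cluster 1 (0.933 to 1.74), so the liver 2 order was not seen in liver 1.

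Single members differed in the joint cluster of liver in which they stood highest. Levels of single members are given for joint clusters with at least 50 cells of the library. The region chr12:128806290-128820109 had 152 CPM in joint cluster 2 of kidney and 51.5 in joint cluster 3. In liver 2 it had 265 in joint cluster 1, 402 in joint cluster 4 and between 17.0 and 39.0 in the 5 others of that size, and in liver 1 it had 195 in joint cluster 1 and at most 2.10 in the 3 others of that size. The region chr5:60910576-60935780 had 1516 CPM in joint cluster 1 of liver 1, from 498 counts, and 560 and 729 in joint clusters 1 and 4 of liver 2. A different pattern was seen at chr5:6175952-6178126. In liver 2 it had 35.7 CPM in joint cluster 5, from 110 counts, and at most 1.83 in the 6 others of at least 50 cells. In liver 1 it had 65.3 in joint cluster 5, from 12 counts, and at most 2.10 in the 3 others of at least 50 cells. In kidney it had 70.0 in joint cluster 2, 17.9 in joint cluster 3 and 20.0 in joint cluster 5.

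Members were spread over all chromosomes. Their share of all regions of a chromosome ran from 3.33% on chromosome 16 (2.99 to 3.70) and 3.34% on chromosome 19 (2.92 to 3.80) to 5.35% on chromosome 5 (4.95 to 5.76) and 5.39% on chromosome 15 (4.96 to 5.85), around 4.54% overall. Another member lay within 50 kb of 57.3% of members, with a median gap of 35860 bp. For the 12217 spleen-only regions, the class nearest in number, the share was 59.3% and the median gap 32842 bp. For the 13103 regions of colon and spleen the share was 72.0%, for kidney-only and liver 2-only regions, which are more numerous, it was 79.9% and 82.8%, and for the 3081 regions of colon, kidney and liver 2 it was 30.2%. The classes differ in number, which bears on these shares. A region of all 7 organs lay within 5 kb of 12.2% of members, against 11.2% of kidney-only and 12.7% of liver 2-only regions.

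The densest stretch of 100 kb was chr20:18976346-19074717, with 13 members among 24 regions, and no region of all 7 organs. It also held 2 kidney-only and 5 liver 2-only regions. The 13 members were between 336 and 6798 bp wide, 7 were higher in liver 2 and 6 in kidney, and 6 had a liver 1 peak. Its first member, chr20:18976346-18977594, had 16.4 CPM in kidney and 2.57 in liver 2. The widest, chr20:19040267-19047064, had 6.07 in kidney, 49.5 in liver 2 and 1.52 in liver 1. The last but one, chr20:19067786-19068738, had 13.3 in kidney and 13.0 in liver 2. Neighbouring members thus differed in which organ was higher. Stretches with 11 members were chr1:183413245-183493660, with 95.7 CPM summed over its members in kidney and 54.5 in liver 2, and chr4:145052359-145145128, with 143 and 120.4.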

How the data were processed

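Per the submitters' processing notes, the reads were processed with Cell Ranger ATAC 1.2.0. The authors deposited 1 peak list per library, called on that library alone, with its barcodes and a matrix of raw counts of transposase cuts. The build was not given in the sources used here.

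Members and lists were chosen with earlier results of these data known. Cells had at least 1000 counts. Member levels were summed over the peaks of a library that overlapped the region. Doublets were scored against 2 simulated doublets per cell among 50 neighbours on 10 components, and the highest-scoring cells, up to the square of the cell number divided by 100000, were removed. Peaks with a count in 1% of cells, without members and the EGFL7 window, were set to 0 or 1, scaled by TF-IDF and projected on 30 components. Those correlated with depth above 0.75 were left out. Clusters came from the Leiden method on 20 neighbours at resolution 0.8 (leidenalg 0.10.2, igraph 0.11.9, scikit-learn 1.9.0, scipy 1.17.1, Python 3.11.15). The scripts were tested on simulated data. Intervals are at 95%.

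Named regions were the 10 with the highest smaller level of kidney and liver 2, the 5 with the largest and the 5 with the smallest ratio among members with 200 counts in each, the 5 highest in liver 1, the 5 densest stretches of 100 kb, and 3 each nearest to the limits of the rule, from which examples are given. Replicates were not averaged, and no test was run, since each organ of the rule had 1 library. Genes and motifs were not analysed.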

Additional observations from a re-analysis of the deposited data

How the results depend on the processing

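Merging touching peaks changed no value. Asking that kidney and liver 2 peaks cover at least 50% of each other gave 7411 members, 48.2% with a liver 1 peak and 43.4% with another member within 50 kb. With peaks in 1% of cells these were 3606, 76.2% and 40.7%, and with the 50000 peaks of most counts 4228, 82.0% and 41.9%. No background is given for the liver 1 shares at these settings. Leaving out members within 500 bp of another organ's peak moved the last share to 56.2%. Without liver 2, and with liver 1 in its place, 7469 regions met the rule, 78.3% had a peak in the other liver library and 48.8% another member within 50 kb. For that 78.3%, no share over all liver 1 regions is given. The share of counts in members was lowest with the 50% overlap, at 4.11% in kidney, 3.47% in liver 2 and 0.79% in liver 1. The median width of members was 518 bp with that overlap. It was 958.5 bp with peaks in 1% of cells and 963 bp with the 50000 peaks of most counts. The ratio of the highest to the lowest cluster in kidney was 1.85 without doublet removal, 2.23 without the tenth of cells with most counts and 2.05 with at least 2000 counts per cell. In liver 2 it was 6.57 at resolution 0.4, 3.22 without doublet removal, 7.34 without the tenth of cells with most counts and 5.37 with at least 2000 counts. The same alternatives for liver 1 were chosen after seeing the data and gave 23.4 to 24.97. The largest value came with at least 2000 counts per cell, which left 2 clusters of at least 50 cells against 5 in the main setting. The causes were not tested. Neighbouring genes and motifs, and the alternatives to them, were not run, because no genome or annotation of the build was at hand. No paired analysis was possible because each organ of the rule had 1 library. In liver 1 the depth allows values for groups of members and seldom for single ones.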

Other observations

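Of the 5 members with the highest liver 1 level, 3 had at least 30.4 CPM in every liver 1 joint cluster of at least 50 cells and lower levels in both male libraries. The region chr1:4237532-4238409 had 62.2 CPM in liver 1 (47.6 to 79.8), 2.17 in liver 2 and 0.878 in kidney. By joint cluster, its liver 1 level was 67.0 in cluster 1, 54.4 in cluster 5, 48.7 in cluster 6 and 70.2 in cluster 7. The region chr4:29619824-29620385 had 54.6 in liver 1, 1.83 in liver 2 and 4.51 in kidney, with between 30.4 and 110 in the same 4 clusters. The region chr8:8511824-8512481 had 60.7 in liver 1, 7.76 in liver 2 and 3.76 in kidney, with 142 in cluster 6 and between 31.4 and 43.5 in the 3 others. Liver 1 differs from liver 2 in animal, sex and library at once, and these cannot be told apart. The liver 1 level also sums whole liver 1 peaks, which can run past a member because the liver 1 list was not merged. A peak of another organ lay 585 bp from the chr1 region, 353 bp from the chr4 region and 1355 bp from the chr8 region. Whether the liver 1 peaks reached past these members was not tested. The window around JCHAIN, a gene of antibody-secreting cells, held 25 merged regions, of which 2 were members.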
